A study of Mus musculus with 8 samples.

Results

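The cells described are Arg1 macrophages, myeloid cells of mouse allografts that carried transcripts of Arg1 together with transcripts of secreted matrix glycoproteins. They were chosen by raw UMIs (unique molecular identifiers, 1 per captured transcript) among barcodes holding 500 or more UMIs of which no more than 10% were mitochondrial, called passing cells below. A cell was a member if it held at least 2 UMIs of Arg1, at least 2 UMIs of Spp1, Fn1, Thbs1 and Ecm1 together, no UMI of the hepatocyte gene Alb, fewer than 5 UMIs of Ccl7, Ccl8 and Ccl12 together, at most 1 UMI of the T cell genes Cd3d, Cd3e, Cd3g and Trac, and none of the Kupffer cell genes Clec4f and Cd5l. Of 31804 passing cells in the 5 tissue libraries of the rule, 200 were members, against 47541 passing cells and 80000 barcodes in all 8 libraries of the series.

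The study profiled heart, liver and kidney allografts 7 days after transplantation by Microwell-seq, a method that captures single cells on barcoded beads in agarose wells. The labels give male BALB/c mice of 8 weeks, and the methods of the study name BALB/c donors and C57Bl6/J recipients, without immunosuppression. The compartments were peripheral blood mononuclear cells (PBMC), infiltrating cells recovered from the digested graft on a Ficoll gradient (TIL) and, for liver and kidney, dissociated cells of the solid organ (PC). Each organ and compartment was 1 library, so no condition was replicated. Each organ came from 2 recipients, and whether these were pooled in a library is not given in the sources used here.

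Arg1 encodes arginase, which turns arginine into ornithine and urea and so competes for the substrate of nitric oxide synthase. Macrophages that express it together with osteopontin (Spp1), fibronectin (Fn1), thrombospondin (Thbs1) and extracellular matrix protein Ecm1 are known from wounds, tumours and scarring tissue, and many of them derive from blood monocytes. Arg1 is also a hepatocyte gene, so its RNA can reach other wells from damaged parenchyma. On GRCm38, Arg1 (ENSMUSG00000019987) lies on chromosome 10 from 24915221 to 24927484 on the minus strand, Spp1 on chromosome 5 from 104435118 to 104441050, and Ecm1 on chromosome 3 from 95734147 to 95739569.

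Transcripts of parenchymal cells went against the labels of a pair of libraries. The library labelled heart TIL held 1056 UMIs of Alb, a hepatocyte gene, and 2 of Myl7, an atrial heart muscle gene. The library labelled liver TIL held no UMI of Alb, 128 of Myl7 and 206 of the muscle actin Acta1. Liver PC held 1429 UMIs of Alb. These libraries are therefore named below by their labels, no library was moved, and no difference between organs is read from them. The 3 libraries that held 199 of the 200 members had 8543672 to 19171264 UMIs each.

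Arg1 macrophages were found in the liver PC library and in the 2 libraries labelled heart and liver TIL, and at most 2 in any other library. They numbered 31 of 9668 passing cells labelled heart TIL (0.321%, 95% exact binomial interval 0.218 to 0.455), 53 of 10000 cells of liver PC (0.530%, 0.397 to 0.693) and 115 of 9337 cells labelled liver TIL (1.23%, 1.02 to 1.48). Kidney TIL held 1 member among 2004 cells, and kidney PC held 0 of 795, with an exact upper bound of 0.463%. The rule applied to blood gave 2 of 7772 cells in heart PBMC, 1 of 6822 in liver PBMC and 0 of 1143 in kidney PBMC, the last with an exact upper bound of 0.322%. A macrophage gate asked for at least 2 UMIs of Csf1r, Ms4a6c, Mpeg1, Cd68, Fcgr1 and Adgre1 together. It also asked for no Alb UMI and at most 1 UMI of the T cell genes of the rule. As a share of cells that passed it, members were 21 of 1633 labelled heart TIL (1.29%, 0.798 to 1.96), 51 of 1798 in liver PC (2.84%, 2.12 to 3.71) and 68 of 2275 labelled liver TIL (2.99%, 2.33 to 3.77). Depth differed between these libraries, the median member holding 1814 UMIs in liver PC and 813 labelled liver TIL. With each cell thinned to 500 UMIs they were 9 of 1464 (0.615%, 0.281 to 1.16), 15 of 1768 (0.848%, 0.476 to 1.40) and 34 of 1807 (1.88%, 1.31 to 2.62), and among cells with 1000 or more UMIs they were 1.53%, 3.06% and 4.93%. The labelled liver TIL share was highest in each case, and the liver PC share, near it without thinning, was lower after thinning, with intervals that still overlapped. In kidney the unthinned count was 1 of 169 cells for TIL and 0 of 69 for PC, with an exact upper bound of 5.21%, above the share in every other library. These intervals cover counting error only, and without replicates the shares were not tested against each other.

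**Figure D1:**
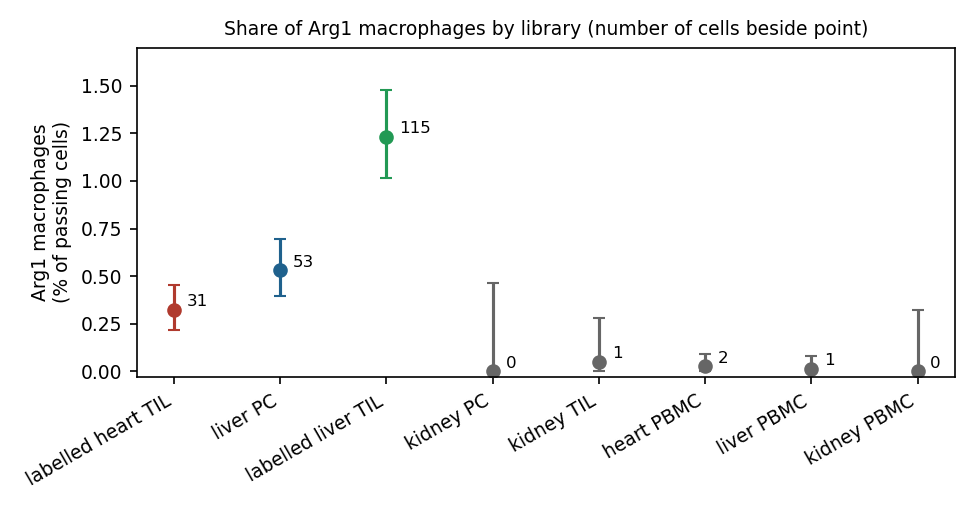
Share of Arg1 macrophages among passing cells in each library (y axis, percent), with 95% exact binomial intervals as bars and the number of cells beside each point. The labelled liver TIL library is highest at 1.23%, and the kidney and blood libraries hold between 0 and 2 cells. Among cells of the macrophage gate, not plotted, the labelled liver TIL and liver PC shares are 2.99% and 2.84% unthinned and 1.88% and 0.848% with each cell thinned to 500 UMIs.

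Free Arg1 RNA was read in the same libraries. In T cells, taken as cells that do not express the gene, Arg1 stood at 123 CPM labelled heart TIL, at 49.4 in liver PC and at 181 labelled liver TIL, and no Arg1 UMI was read in T cells of the kidney and blood libraries. CPM is the UMIs of a gene per 1000000 UMIs of the summed cells. The highest of these levels was labelled liver TIL, in the library that held no Alb UMI, and the lowest of the 3 was in liver PC, with 1429 Alb UMIs. The source of the free Arg1 RNA was not tested. The share of T cells with 2 or more Arg1 UMIs was 1.49%, 0.638% and 1.94%, at median depths of 820, 1460 and 818 UMIs. Among cells of the macrophage gate the same share was 3.92%, 6.34% and 13.9%, at medians of 829, 1532 and 792 UMIs. Arg1 detection in macrophages was thus above the level of these T cells in each of the 3 libraries, with intervals that did not overlap. Here and below, the T cells were chosen with no UMI of the macrophage gate genes. That choice can lower the free RNA read in them, by an amount that was not tested. Cells of the macrophage gate held no Alb UMI, a condition that was not set on the T cells. The Arg1 level of the members themselves, which the rule set, was 8375, 7523 and 7226 CPM.

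The rule reduced the cells in steps. At least 2 Arg1 UMIs were held by 298 cells labelled heart TIL, 351 of liver PC and 708 labelled liver TIL, and the matrix condition left 58, 144 and 203 of them. Another 112 cells met every condition but had 1 Arg1 UMI, while 43 members had exactly 2. In the labelled liver TIL library, the cells with 1 Arg1 UMI held Ecm1 at 1088 and Chil3 at 386 CPM, against 1290 and 948 in the members with exactly 2. A barcode shared with a passing cell of another library was carried by 25 members, and no barcode was a member in more than 1 library. Without shared barcodes the shares were 0.330%, 0.541% and 1.22%.

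The label of macrophage was met by summed transcripts and less evenly cell by cell. All 15 genes of a macrophage and monocyte list, among them the lysozyme Lyz2, were detected in the members of each of the 3 libraries, with a summed level of 30822 to 40001 CPM against 2781 to 6880 in T cells. The list includes the 6 genes of the macrophage gate, and the T cells had been chosen with no UMI of these. Part of that gap was therefore set in advance. The 6 genes of the macrophage gate reached 2 UMIs in 141 members and fell short of it in the other 59, of which 47 were labelled liver TIL, where median depth was 813 UMIs. Mast cell genes summed to 0 to 27.2 CPM and B cell genes to 0 to 9.36. In the labelled liver TIL library, 7 erythroid genes summed to 25263 CPM in members and 34285 in T cells, and 7 plasma cell genes to 11427 and 19062, while in the other two libraries the erythroid sum in members was at most 197. At least 2 UMIs of another cell type's list were held by 143 members, and by 57 when erythroid genes were allowed. The part of these transcripts in the results was not tested.

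The matrix genes of the rule did not all mark the same cells. Ecm1 was read in 150 of the 199 members of the 3 libraries, Spp1 in 91, Fn1 in 70 and Thbs1, which encodes a thrombospondin, in 32. A single matrix gene supplied every matrix UMI in 80 members, 47 of them with Ecm1 alone and 23 with Spp1 alone, and all 4 genes were read together in 2. Arg1 counts per member had a median of 4 labelled heart TIL, 11 in liver PC and 5 labelled liver TIL and reached 56. Summed over members, Ecm1 stood at 2003, 1478 and 1594 CPM in the 3 libraries, Spp1 at 1675, 852 and 1503, Fn1 at 361, 599 and 670, and Thbs1 at 131, 159 and 226. In liver PC 1 cell gave 29 of the 158 Ecm1 UMIs and 30 of the 91 Spp1 UMIs came from 1 cell as well. In T cells of the 3 libraries Ecm1 stood at 56.9, 26.8 and 98.3 and Spp1 at 106, 63.2 and 173.

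Slpi and Cxcl3, the remaining markers by which the cells had been named, were read in 65 and 15 of the 199 members. Slpi, which encodes a secreted inhibitor of leukocyte proteases, was read in 18 of 31 members labelled heart TIL, 22 of 53 in liver PC and 25 of 115 labelled liver TIL, at 5353, 1029 and 924 CPM against 241, 123 and 167 in T cells. The neutrophil-attracting chemokine Cxcl3 was read in 1, 3 and 11 members of the same libraries. In the labelled heart TIL library all 6 Cxcl3 UMIs came from 1 cell, and in liver PC 16 of 21 did, so the even levels of 197, 197 and 208 CPM do not describe a typical member. Cxcl3 in T cells stood at 2.28, 1.5 and 31.8, and in Chil3 monocytes, described below, at 0, 2.03 and 17.4. Since both genes named the cells, they received no test.

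Chil3, a secreted chitinase-like protein of inflammatory monocytes, was read in 118 of 199 members, and at least 1 UMI of the complement genes C1qa, C1qb and C1qc in 186. Single UMIs of these genes were common in T cells too. To compare libraries of unequal depth each cell was thinned to 500 UMIs, at which Chil3 was read in 74.2% (55.4 to 88.1), 64.2% (49.8 to 76.9) and 33.9% (25.3 to 43.3) of members labelled heart TIL, of liver PC and labelled liver TIL, against 83.9%, 88.7% and 39.1% unthinned. In thinned T cells the Chil3 shares were 52.0%, 29.8% and 14.7%. A C1q UMI was read in 90.3%, 77.4% and 90.4% of thinned members and in 59.8%, 34.8% and 63.7% of thinned T cells. UMIs of both Chil3 and C1q were held by 64.5% (45.4 to 80.8), 45.3% (31.6 to 59.6) and 30.4% (22.2 to 39.7) of thinned members, against 35.0%, 15.6% and 11.0% of T cells. The shares in members were above those in T cells in each library, and a member with 1 UMI cannot be told from one with free RNA. Unthinned, Chil3 reached 5 UMIs in 11 of 31, 30 of 53 and 3 of 115 members, and in 4.74%, 5.33% and 0 of 1084 T cells, the last with an exact binomial upper bound of 0.339%. The low Chil3 share labelled liver TIL went with a low Chil3 level in T cells of that library, 318 CPM against 1512 and 734. At least 5 UMIs of the antigen-presentation genes H2-Aa, H2-Ab1, H2-Eb1 and Cd74 were held by 80.6%, 56.6% and 93.9% of thinned members and by 33.6%, 8.97% and 46.7% of thinned T cells. Mrc1, the mannose receptor of alternatively activated macrophages, was read in 6 members, all in liver PC, and Retnla in none.

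**Figure D2:**
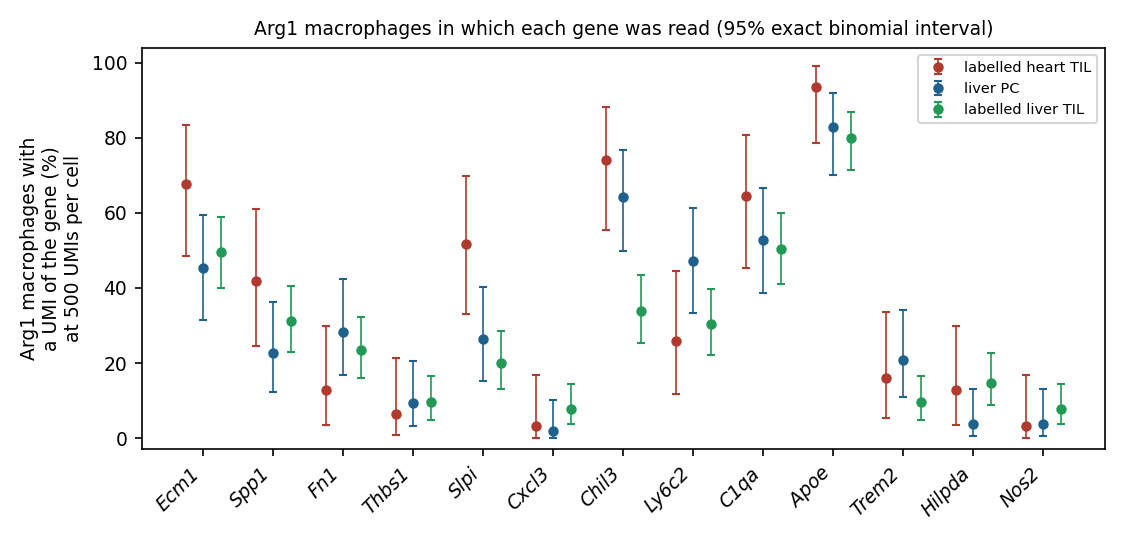
Share of Arg1 macrophages with at least 1 UMI of each gene after thinning every cell to 500 UMIs (y axis, percent), by library, with 95% exact binomial intervals. Apoe was read in 80.0% to 93.5% of members, and Chil3 in fewer members labelled liver TIL (33.9%) than in liver PC (64.2%).

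Which genes set Arg1 macrophages apart from the monocytes beside them was asked within each library. The comparison cells were Chil3 monocytes with no Arg1 UMI, at least 5 Chil3 UMIs, at least 2 UMIs of Ly6c2, Ccr2, Csf1r and Ms4a6c together, at most 1 UMI of 5 neutrophil granule genes, and the same limits on Alb, chemokine, T cell and Kupffer cell genes. They numbered 400, 535 and 60, with median depths of 833, 1555 and 883 UMIs against 893, 1814 and 813 in members. UMIs were summed over cells, and edgeR's quasi-likelihood test was fitted with the library as a block, so that the 3 libraries served as replicates and cells did not. The genes of either gate received no call. The libraries may share animals, and the p-values measure the spread among these 3 libraries only. Of 1623 genes tested, 82 were higher in Arg1 macrophages (5.05%) and 36 lower (2.22%) at an adjusted p under 0.05, and 114 of the 118 had the same direction in every library. Without the labelled heart TIL library 43 were higher and 12 lower, and without liver PC 50 were higher. With both groups kept to cells that passed the macrophage gate, a choice made after seeing the data, 90 were higher and 37 lower.

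Among called genes with at least 50 UMIs that moved the same way in every library, the largest fold was in Pf4. Pf4, the platelet factor 4 chemokine, stood at 460, 253 and 1204 CPM in Arg1 macrophages of the labelled heart TIL, liver PC and labelled liver TIL libraries, against 20.6, 10.1 and 86.9 in Chil3 monocytes. The log2 fold change was 4.47 ± 0.30 (SE, edgeR adjusted p = 5.97e-07). Pf4 was below the filter on low counts in every monocyte sum, so it was tested only through its levels in Arg1 macrophages. That the groups did not overlap was thus fixed by the filter. Pf4 was read in 50 of 199 members, unevenly: in the labelled heart TIL library 10 of its 14 UMIs came from 1 cell and in liver PC 13 of 27, while labelled liver TIL 36 members shared 133 UMIs. In T cells it stood at 10.8, 4.26 and 95.5. Pf4 is also a platelet gene, and the other 4 platelet markers (Ppbp, Itga2b, Gp9 and Gp1bb) were at 0 in members of the labelled heart TIL and liver PC libraries, while 2 of them, Ppbp and Gp9, were read in members labelled liver TIL.

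AA467197, a gene also called Nmes1, was carried by more of the members. It stood at 723, 1263 and 1729 CPM in Arg1 macrophages against 69.4, 108 and 330 in Chil3 monocytes, a log2 fold change of 3.33 ± 0.23 (edgeR adjusted p = 6.04e-07), and was read in 113 of 199 members. In T cells it stood at 52.9, 70.7 and 232. Clec4d, a C-type lectin receptor for microbial glycolipids, stood at 657, 917 and 670 against 110, 172 and 86.9 (log2 fold change 2.63 ± 0.20). The complement receptor gene C3ar1 was higher by 2.63 ± 0.30 on the log2 scale, and the lysosomal protease gene Ctsl by 2.25 ± 0.22. Adam8, a membrane metalloprotease, Pltp, a phospholipid transfer protein, and Sgk1, a stress-regulated kinase, were higher by 2.36, 2.05 and 1.97, Pltp not in DESeq2.

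**Figure D3:**
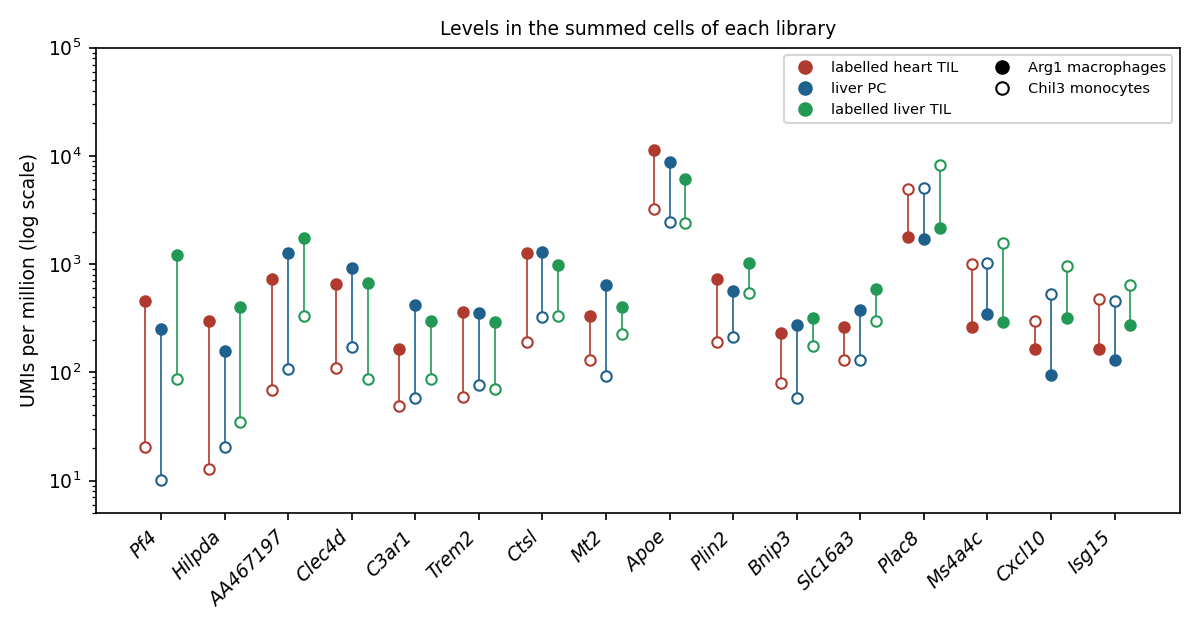
Levels of 16 genes (y axis, CPM on a log scale) in the summed Arg1 macrophages (filled) and Chil3 monocytes (open) of each of 3 libraries, joined by lines within a library. The 12 genes on the left are higher and the 4 on the right lower in Arg1 macrophages in every library.

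Saa3, an acute-phase serum amyloid, was also higher. It took 60593 CPM labelled heart TIL, 32058 in liver PC and 8520 labelled liver TIL in Arg1 macrophages, and 9498, 7374 and 5546 in Chil3 monocytes (log2 fold change 1.97 ± 0.29, edgeR adjusted p = 0.000479). The ratio was thus widest labelled heart TIL and narrowest labelled liver TIL. In T cells of the 3 libraries Saa3 stood at 3458, 1477 and 855 CPM.

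Of 12 tested lipid-handling genes, against 5.05% higher and 2.22% lower over all genes tested, 7 were higher (Trem2, Cd9, Apoe, Cd63, Plin2, Ctsd and Ctsb), 1 was lower (Lpl, lipoprotein lipase, by edgeR and not by DESeq2) and 4 had no call, with a median log2 fold change of 1.03 against -0.06 over all genes tested. Trem2, a lipid-sensing receptor of macrophages, stood at 361, 356 and 290 CPM against 59.1, 76.0 and 69.5 in Chil3 monocytes (log2 fold change 2.41 ± 0.27, edgeR adjusted p = 4.25e-05). Like Pf4, Trem2 passed the filter on low counts only through its levels in Arg1 macrophages. Apoe, which carries cholesterol out of cells, stood at 11232, 8721 and 6094 against 3220, 2432 and 2417 (1.80 ± 0.16). Plin2, a lipid droplet coat protein, stood at 723, 561 and 1023 against 190, 213 and 539. Gpnmb, a gene often named beside Trem2, was read in 5 members.

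Of 20 listed genes known to be induced by low oxygen, glycolysis apart, 8 were tested. Of these, Hilpda, Bnip3, Fam162a and Mif were higher, 4 had no call and none was lower. Their median was 1.06, and 5.05% of all genes tested were higher. Hilpda, a lipid droplet protein that inhibits triglyceride breakdown, stood at 296, 159 and 398 CPM against 12.8, 20.3 and 34.8 in Chil3 monocytes (3.56 ± 0.47, edgeR adjusted p = 0.000208). Hilpda too passed the filter on low counts only through its levels in Arg1 macrophages. It was read in 38 of 199 members, with 8 of the 17 UMIs of liver PC in 1 cell. In T cells, Hilpda stood at 48.4, 41.6 and 86.1, above its level in Chil3 monocytes and below that in Arg1 macrophages. Bnip3, which marks mitochondria for removal, stood at 230, 271 and 317 against 79.7, 57.8 and 174 (1.87 ± 0.32). Of 19 listed genes of glycolysis 10 were tested. The lactate exporter Slc16a3 (1.38 ± 0.23), Gpi1 (1.10), Aldoa (0.83), Tpi1 (0.82) and Ldha (0.70) were higher and none was lower, while DESeq2 called 2 of the 10. Of 29 tested nuclear genes of oxidative phosphorylation, edgeR and DESeq2 called none (2 were lower at an unadjusted p under 0.05 in edgeR and 0 in DESeq2), with a median of -0.20. Vegfa, another target of low oxygen, was read at 0, 9.36 and 18.1 CPM in members and had too few UMIs to test.

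Promoters of 3 of the called genes, each with a match described below, are shown as examples of known targets of the same factors. Windows of 250 bases before to 50 after a start were taken from RefSeq on GRCm38.p6, and the letters ACGTG, the core bound by hypoxia-inducible factors, were searched on both strands, so that CACGTG counts on each. The letters were in at least 1 window of 7 of the 9 called genes of both lists and of 25 of 33 listed genes with a window (75.8%), against 5886 of 27025 genes (21.8%) and 381 of 1263 tested genes (30.2%). Among all genes higher in Arg1 macrophages with a window, 20 of 62 held them (32.3%). A match describes the letters in the window and shows no binding. Gpi1 and Tpi1 were the called genes of both lists without a match. The low-oxygen list was made of known targets, so the share over both lists is not an independent result. For Hilpda the window of the start that held a match is printed, and that of its other start (chr6:29272238-29272537) held none. Matches are in capitals, 5′ to 3′ along each gene.
Hilpda, plus strand, chr6:29272376-29272675: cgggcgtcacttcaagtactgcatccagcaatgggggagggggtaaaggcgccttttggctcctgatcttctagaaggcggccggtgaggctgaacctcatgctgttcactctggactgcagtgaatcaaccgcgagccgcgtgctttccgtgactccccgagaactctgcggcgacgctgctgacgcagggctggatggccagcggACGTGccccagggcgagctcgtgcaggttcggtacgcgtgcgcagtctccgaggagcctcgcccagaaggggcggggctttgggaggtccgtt
Bnip3, minus strand, chr7:138909457-138909756: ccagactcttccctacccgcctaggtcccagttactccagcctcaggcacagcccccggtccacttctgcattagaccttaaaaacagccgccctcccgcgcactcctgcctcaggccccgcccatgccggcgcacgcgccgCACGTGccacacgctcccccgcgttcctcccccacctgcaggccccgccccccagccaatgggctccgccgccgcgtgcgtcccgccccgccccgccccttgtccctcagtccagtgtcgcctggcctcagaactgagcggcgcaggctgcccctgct
Slc16a3, plus strand, chr11:120948817-120949116: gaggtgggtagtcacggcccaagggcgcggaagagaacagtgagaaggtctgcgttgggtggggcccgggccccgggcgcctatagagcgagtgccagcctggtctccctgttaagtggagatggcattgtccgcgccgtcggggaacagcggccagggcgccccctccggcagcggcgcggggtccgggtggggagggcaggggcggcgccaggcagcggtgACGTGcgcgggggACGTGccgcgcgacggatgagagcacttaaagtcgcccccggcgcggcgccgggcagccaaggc

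Of 12 tested antioxidant and metal stress genes, 7 were higher in edgeR and in DESeq2, against 5.05% of all genes in edgeR, and none lower, with a median of 0.98. The metallothionein gene Mt2 stood at 328, 636 and 398 CPM against 131, 92.2 and 226 (2.18 ± 0.32), and Mt1 was higher by 1.61. The heme-degrading enzyme gene Hmox1 stood at 920, 1712 and 2979 against 591, 953 and 921 (1.19 ± 0.19). The ferritin genes Fth1 and Ftl1 were higher by 1.17 and 1.06, and Fth1 took 27614 to 35469 CPM in Arg1 macrophages.

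Among all genes tested, 5.05% were higher and 2.22% lower, and lists of other secreted proteins are read beside these shares. Among 6 tested genes of the CXC chemokine and interleukin-1 list, Pf4 and the neutrophil attractant Cxcl2 (1.43 ± 0.27) were higher and the decoy receptor gene Il1r2 was lower (-1.21 on the log2 scale), while Il1b stood at 1708, 786 and 1240 against 604, 811 and 2173 and had no call. DESeq2 called 2 of the 6 higher and none lower (1 at an unadjusted p under 0.05). Of 7 CC chemokines and cytokines, Ccl9, Ccl6 and Ccl5 were higher, by 1.68, 1.43 and 0.69, and none was lower. Of 7 tested matrix glycoprotein genes outside the rule, none was called by edgeR (1 higher at an unadjusted p under 0.05) or DESeq2 (0), with a median of 0.34. Of 19 listed genes of alternative activation 5 were tested, and Tgm2, a transglutaminase, was higher, by 1.40. Ltc4s, the leukotriene C4 synthase, was chosen after its values were seen and stood at 131, 140 and 190 against 15.4, 2.03 and 0.

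Of 9 tested complement genes, 6 were higher, against 5.05% of all genes, with C1qa at 2562, 2601 and 1974 CPM against 902, 1143 and 539 (1.58 ± 0.17). Of 16 listed monocyte genes 8 were tested. Of these, 4 were lower, against 2.22% of all genes, among them Plac8, Ms4a4c and Ifitm6, and none was higher, with a median of -0.71. Plac8 stood at 1773, 1722 and 2146 against 4970, 5056 and 8171 (-1.54 ± 0.16, edgeR adjusted p = 3e-05), and Ms4a4c, a membrane protein gene, at 263, 346 and 290 against 999.6, 1030 and 1582 (-1.85 ± 0.21). The levels of Plac8 in Arg1 macrophages were close to those of T cells, 1781, 1405 and 1546. DESeq2 called 2 of the 8 lower. Genes of a neutrophil list moved with them: 3 of its 4 tested genes, S100a8 (-0.94), S100a9 (-0.80) and Il1r2, were lower as well, 1 of them in DESeq2. Its 13 genes summed to 3866 to 5175 CPM in Arg1 macrophages, 7093 to 9120 in Chil3 monocytes and 4495 to 5579 in T cells of the 3 libraries. S100a8 and S100a9, which encode the subunits of calprotectin, are made by monocytes as well as neutrophils and gave most of these sums, while Ngp, a granule gene, was at 0 in Arg1 macrophages of every library. The part of neutrophil transcripts in the lower monocyte genes was not tested. The comparison cells had been selected on Chil3, Ly6c2, Ccr2, Csf1r and Ms4a6c, which received no call, and that choice favours monocyte genes in them.

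Of the interferon-inducible genes few were called, all of them lower, against 2.22% lower over all genes tested. Of 14 tested genes of the interferon-gamma list, Cxcl10 and Cxcl9, both attractants of activated T cells, were lower and the other 12 had no call, with a median of -0.53. Cxcl10 stood at 164, 93.6 and 317 CPM against 301, 532 and 956 (-1.70 ± 0.26). Of 5 tested type I interferon genes, Isg15 was lower (-1.39 ± 0.23), and the remaining 4 had no call. Outside the lists, Serpina3g and Fam26f were also lower, with log2 fold changes of -1.85 and -1.92. The transcription factor gene Batf stood at 32.8, 28.1 and 27.2 against 123, 121 and 174 (-2.17 ± 0.51). Batf passed the filter on low counts only through its levels in Chil3 monocytes. That its groups did not overlap was thus fixed by the filter. Napsa, Treml4 and Gm9733 had log2 fold changes of -1.86, -2.22 and -2.79. DESeq2 did not call Batf, Treml4 or Gm9733. Of 7 tested genes of class II antigen presentation, the protease gene Ctss was higher and 6 had no call, and H2-Ab1 stood at 7127, 4557 and 10485 against 6193, 5287 and 6259.

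The other comparisons asked how Arg1 macrophages differed from other macrophages without Arg1. Chemokine macrophages had at least 5 UMIs of Ccl7, Ccl8 and Ccl12 and numbered 23, 25 and 354. Of 1271 genes tested against them, 43 were higher (3.38%) and 15 lower (1.18%), all 58 in the same direction in every library. C1q macrophages had at least 10 UMIs of C1qa, C1qb and C1qc, fewer than 5 of Chil3 and of those chemokines, and numbered 291, 279 and 298. Members were not held to the C1q and Chil3 limits: of 199, 79 held 10 or more C1q UMIs and 44 held 5 or more of Chil3. The part of this gate in the differences was not tested. Of 2694 genes tested, 113 were higher (4.19%) and 36 lower (1.34%), 142 of them in the same direction in every library. Without liver PC, 57 were higher and 8 lower than in C1q macrophages, and without the labelled liver TIL library 34 were lower than in chemokine macrophages. Both comparisons and the first use the same Arg1 macrophages, so their values are given side by side and their calls are not independent.

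Against chemokine macrophages the higher genes included Hilpda (2.68 ± 0.37, edgeR adjusted p = 0.0149), Cd14, a coreceptor for bacterial lipopolysaccharide (2.83 ± 0.26), F10, coagulation factor X (3.10 ± 0.44), and Prtn3, a protease of myeloid granules (3.33 ± 0.49). Cd14 stood at 1149, 861 and 1811 CPM against 40.1, 113 and 309, with no overlap. Prtn3 stood at 361, 178 and 181 against 120, 16.2 and 10.7. Cd14 and Prtn3 passed the filter on low counts only through their levels in Arg1 macrophages. Wfdc21, a secreted protease inhibitor-like protein, and Adssl1, an enzyme of purine synthesis, were higher by 2.45 and 2.44, the latter not in DESeq2. Of 11 tested lipid-handling genes Plin2 was higher, against 3.38% of all genes, Cd63 was lower, against 1.18%, and 9 had no call, while DESeq2 called none higher (2 at an unadjusted p under 0.05) and 1 lower. Trem2 stood at 80.3, 48.6 and 256 and Apoe at 10314, 7198 and 10768 in chemokine macrophages, without a call. Of 6 tested matrix glycoprotein genes outside the rule, edgeR called Anxa2 higher, against 3.38% of all genes, and 5 had no call. Of 9 tested complement genes edgeR called none higher and C3 lower. Of 5 tested low-oxygen targets outside glycolysis it called Hilpda higher, of 9 glycolysis genes 3, and of 12 antioxidant and metal stress genes 5. No gene of these last lists was lower. The lower genes included the adhesion molecule gene Vcam1 (-2.83 ± 0.51), Tmem176b (-2.73), C3 (-1.84) and Gpx3 (-2.62), and the class II gene H2-Eb1 (-0.85 ± 0.15). Col1a2, a collagen gene of fibroblasts, had a log2 fold change of -4.85 and stood at 120, 2448 and 200 in the comparison cells, whose 7 stromal genes summed to 11104 CPM in liver PC. The part of stromal cells in this comparison was not tested. DESeq2 called neither C3 nor Col1a2 (adjusted p = 0.0803 and 0.327). Without liver PC, edgeR called no gene of the comparison in either direction, with 69 higher and 53 lower at an unadjusted p under 0.05.

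Against C1q macrophages, where 4.19% of all genes tested were higher, counts of listed genes depended on the tool. Of 13 tested glycolysis genes 7 were higher, of 10 other low-oxygen targets 4 (Hilpda, Bnip3, Ero1l and Fam162a), of 14 antioxidant and metal stress genes 8, and no gene of these lists was lower. DESeq2 called 1, 3 and 4 of them. Hilpda stood at 24.8, 27.4 and 62.2 CPM in C1q macrophages (2.89 ± 0.32, edgeR adjusted p = 2.95e-10). In this comparison too, Hilpda passed the filter on low counts only through its levels in Arg1 macrophages. Prtn3 was higher by 3.88 on the log2 scale, AA467197 by 2.71 and Mt2 by 2.74. Markers of other cell types were called higher beside the granule gene Prtn3. Of 6 tested neutrophil genes Lcn2 (2.67) and S100a8 (0.71) were higher, the latter not in DESeq2, with the 13 listed genes at 3866 to 5175 CPM in Arg1 macrophages and 2600 to 3396 in C1q macrophages. Lcn2 stood at 821, 1114 and 27.2 CPM against 112, 157 and 36.0, so it was not higher labelled liver TIL. Marco, a scavenger receptor gene on the Kupffer cell list, was higher by 2.15 at 361, 805 and 18.1 against 115, 190 and 0, with 29 of its 86 UMIs of liver PC in 1 cell. Trf, the transferrin gene of the hepatocyte list, was higher by 1.15 in edgeR and had no call in DESeq2. The part of these cell types in the comparison was not tested. I830127L07Rik was higher by 3.03, whereas against Chil3 monocytes its log2 fold change was -0.96, called by edgeR and not by DESeq2. Pf4 stood at 77.6, 29.2 and 85.2 in C1q macrophages and was higher. Of 7 tested coagulation genes 5 were higher (4 in DESeq2), F13a1 (2.67 ± 0.34) and F7 (1.86 ± 0.55, not called by DESeq2) among them. Nos2, the inducible nitric oxide synthase that shares the substrate of arginase, stood at 65.7, 112 and 118 against 24.8, 20.1 and 62.2 (1.66 ± 0.46, edgeR adjusted p = 0.0135) and was read in 18 of 199 members. In liver PC 8 of its 12 UMIs came from 1 cell, and DESeq2 did not call it. Nos2 also passed the filter on low counts only through its levels in Arg1 macrophages.

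Of 7 tested class II antigen presentation genes, against 1.34% of all genes lower than in C1q macrophages, H2-Eb1 (-0.80 ± 0.13), H2-DMb1, H2-Ab1 (-0.59), H2-Aa (-0.54) and Cd74 (-0.48) were lower, while DESeq2 called 1 of the 7. H2-Ab1 stood at 7127, 4557 and 10485 CPM against 10819, 8820 and 15520. The comparison cells had been selected for C1q and against Chil3, a choice that may favour class II genes in them, which was not tested. Itgax, an integrin of dendritic cells, and Batf3, a transcription factor of cross-presenting dendritic cells, had log2 fold changes of -2.11 and -2.07, both called by edgeR and neither by DESeq2. EdgeR also called Ebi3, Dnase1l3 (-2.14), Klrk1 (-1.80) and the cell cycle enzyme gene Tk1 (-2.44) lower, and DESeq2 called none of these 4 (adjusted p from 0.304 to 0.751). Cxcl9 had a log2 fold change of -1.26, called by both tools, and Cxcl10 one of -1.19, called by edgeR only.

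**Figure D4:**
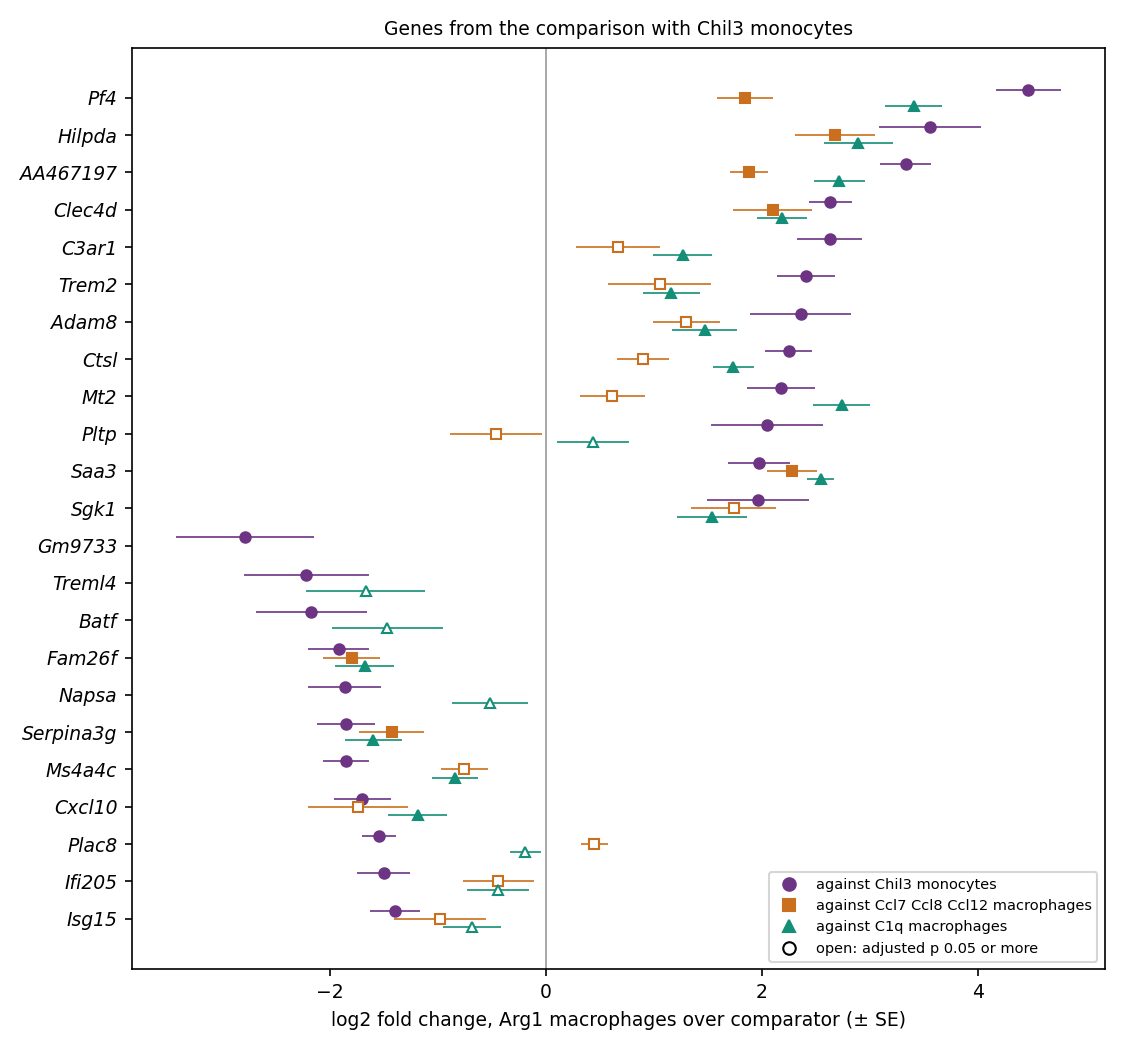
Log2 fold changes (x axis) of Arg1 macrophages over each of 3 comparison groups for genes named by the comparison with Chil3 monocytes, with standard errors as bars and open symbols where the adjusted p was 0.05 or more. Hilpda, AA467197, Pf4, Clec4d and Saa3 are higher in all 3 comparisons, and Plac8 is called only against Chil3 monocytes.

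Between the libraries labelled heart and liver TIL, the levels in Arg1 macrophages could be set side by side without a test, on 30449 and 110440 UMIs. A gene was taken to differ if its CPM plus 1 was at least 2-fold apart and the higher sum held at least 10 UMIs, which the deeper library reaches more easily. Of 1654 genes with 10 UMIs in either sum, 357 were higher labelled liver TIL and 38 labelled heart TIL, and T cells of the same libraries differed at least 2-fold the same way for 40 and 13 of them. The most unequal genes labelled heart TIL were Lcn2, Marco, Wfdc21, Fpr1 and Saa3. Lcn2, an iron-binding protein of neutrophils and inflamed tissue, stood at 821 CPM on 25 UMIs against 27.2 on 3, and in T cells at 166 against 57.1. Saa3 stood 7.11-fold apart, with T cells at 3458 against 855. Those named labelled liver TIL were Hba-a2, Hbb-bt, Jchain, Mgp and Rgs1, each with 0 UMIs in members labelled heart TIL. A fold over 0 counts gives no rank, so other genes may be more unequal. These hemoglobin genes, Jchain and Mgp were also higher in T cells labelled liver TIL, with Mgp at 282 against 7.40. Of the 100 Mgp UMIs in members labelled liver TIL 87 came from 1 cell, so its level does not describe a typical member. Rgs1, a regulator of chemokine receptor signalling, stood at 715 (566 to 892) against 0 UMIs, at least 7.26-fold higher by the limit of 3 counts, whereas its T cell levels were 203 and 242.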

How the data were processed

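Single cells were profiled by Microwell-seq. The authors deposited raw UMI counts per gene and barcode, made with Drop-seq core tools and STAR on GRCm38 and a GENCODE gene set (release not given in the sources used here); multi-aligned reads were removed and UMIs of a gene at 1 edit apart were merged. Per the submitters' processing notes, bcl2fastq was also used. Each of the 8 libraries holds 10000 barcodes and 3418722 to 19171264 UMIs, which are not normalized.

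Barcodes with 500 or more UMIs and no more than 10% mitochondrial UMIs were kept. No doublet caller was run. The members, gates and gene lists were chosen with earlier results of these data known. CPM values are a gene's UMIs per 1000000 UMIs of the summed cells. Sums of libraries with at least 10 cells in both groups were tested in edgeR 4.0.16 (R 4.3.3), with TMM scaling, filterByExpr, a quasi-likelihood fit with the library as block, and Benjamini-Hochberg adjustment over all genes tested except gate genes, Cxcl3 and Slpi. The procedure was tested on data simulated with a single dispersion for all genes. Log2 changes of 1 were recovered in 60.7% of genes against Chil3 monocytes, 72.7% against chemokine macrophages and 58.9% against C1q macrophages. Log2 changes of 2 were recovered in 100%, 98.75% and 90.6%. A gene without a call may therefore still differ. DESeq2 1.42.0 (its p-values adjusted the same way), other scaling, filters, gates and left-out libraries were alternatives. T cells held at least 3 UMIs of Cd3d, Cd3e, Cd3g and Trac and no UMI of the macrophage gate genes (Csf1r, Ms4a6c, Mpeg1, Cd68, Fcgr1 and Adgre1). Genes were named if in a listed set, or if among the 12 largest folds each way against Chil3 monocytes (6 against the other groups) that were called, moved the same way in every library and held at least 50 UMIs. Some genes that met the rule are not reported here. The planned comparison among 3 lymphocyte libraries was made between 2, since kidney TIL held 1 member. Bars on shares are Clopper-Pearson intervals at 95%, and those on levels exact Poisson.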

Additional observations from a re-analysis of the deposited data

How the results depend on the processing

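Each library stands for 1 condition, the members held 30449 to 110440 UMIs per library, and genes below the filter could not be tested. The fits were paired, with both groups of cells from the same library and the library as block; without the block the genes higher and lower numbered 26 and 4 against Chil3 monocytes (82 and 36 with it), 1 and 0 against chemokine macrophages (43 and 15), and 24 and 1 against C1q macrophages (113 and 36). For the 0, edgeR gave 50 lower genes at an unadjusted p under 0.05. DESeq2 called 51 and 11, 26 and 8, and 53 and 5 in the same order. Without a filter on low counts, 52 and 21 were called against Chil3 monocytes, 38 lower against chemokine macrophages and 74 higher against C1q macrophages. Leaving out 1 library gave 43 to 105 higher and 12 to 40 lower against Chil3 monocytes, 0 to 60 and 0 to 34 against chemokine macrophages, and 57 to 119 and 8 to 35 against C1q macrophages. Without the labelled heart TIL library the first were 43 and 12, and without liver PC 50 higher, 0 and 0 against chemokine macrophages and 57 and 8 against C1q macrophages; without labelled liver TIL 34 were lower than chemokine macrophages. With 1000 or more UMIs per cell, 24 and 9 differed from chemokine macrophages and 75 and 20 from C1q macrophages. With 3 or more Arg1 UMIs, 30 and 16 were lower in these comparisons. Alternatives chosen after seeing the data kept both groups to the macrophage gate, giving 71 and 35, and 69 and 14, or left out cells with genes of other types except erythroid genes, giving 21 lower against Chil3 monocytes. The same exclusion with erythroid genes included, and members with 5 or more Chil3 UMIs, left 2 libraries and were not run. Named genes were counted once per comparison, and none changed direction. Without the block 29 lost their call and 19 kept it, and in DESeq2 14 lost it and 34 kept it. Without liver PC 19 lost it and 23 kept it. The call was lost by 8 and kept by 40 without labelled heart TIL, and lost by 7 and kept by 36 without labelled liver TIL. The share of members fell to 0.217% labelled heart TIL, 0.320% in liver PC and 0.782% labelled liver TIL in cells thinned to 500 UMIs. Labelled liver TIL it was 1.63% with 1000 or more UMIs and 0.868% with 3 or more Arg1 UMIs, and kidney TIL held 0 with 1000 or more UMIs. T cells with 5 or more T cell UMIs held Arg1 at 96.4 CPM labelled heart TIL and 36.6 in liver PC. Causes other than fewer cells, genes or libraries were not tested.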
